A study of Drosophila melanogaster with 3 samples.

Results

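The segmentation genes eve, ftz, hry (hairy), run, prd, slp1, slp2 and opa of the pair-rule class, together with the engrailed pair en and inv, were examined for binding of the homeodomain protein Mirror. They were taken as a list of 10 gene symbols, all of which were found among the 13945 protein-coding genes of the main chromosome arms, and a locus was the gene body plus 5 kb on each side. Binding came from ChIP-seq of whole Drosophila melanogaster embryos of mixed sex, aged 4 to 20 h, from the transgenic strain mirr-GFP, with GFP joined to the C terminus of Mirror and an insertion that the labels describe as targeting mirr. The labels name 3 biological replicates, numbered 1, 2 and 3, and no untagged or untreated embryos, so no comparison between conditions was possible. Chromatin was sonicated to 200 to 800 bp, the antibody field names mirr, and the labels do not say whether the strain kept untagged Mirror or name the promoter of the fusion. A whole embryo mixes many cell types, and occupancy in few cells cannot be told apart from weak occupancy in many.

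The authors deposited a list of 6201 peaks that passed an irreproducible discovery rate (IDR) procedure, a list of 30000 regions called on the pooled replicates, and a list of 30000 regions for each replicate, called without such a threshold. Coordinates are those of the dm6 assembly. A summit is the position of highest signal in a region. The signal is the authors' own value without a stated scale, so it was used for ranks within a list, with rank 1 the strongest, and signals of different lists are not on 1 scale. Sequencing depth is unknown, and the lists share 1 control, so no counting error can be given. The relaxed lists have equal lengths and hold background as well as peaks, and because the IDR list was made from them, recurrence in the replicates describes a peak and is no independent support. The gene of the labelled target also had peaks: the locus of mirr held 12 IDR summits, the strongest with rank 5 in the IDR list and ranks 10, 1 and 4 in replicates 1, 2 and 3. Peaks at mirr do not show which protein was recovered.

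Pair-rule genes encode transcription factors that divide the early embryo into repeated units, most of them in a stripe pattern of alternating segments. Pair-rule products position the stripes of en and other segment polarity genes. The Engrailed and Invected proteins mark the posterior compartment of each segment, and their genes are known to be held active or silent by Trithorax and Polycomb group proteins. Stripes of most pair-rule genes are formed before gastrulation, and several of these genes are used again later, for example in the nervous system. Mirror belongs to the Iroquois family of TALE homeodomain proteins.

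Mirror peaks were present at 3 of the 10 loci, those of hry, slp2 and inv, and were missing from the IDR list at eve, ftz, run, prd, slp1, opa and en. Over all protein-coding genes 52.1% had an IDR summit in a locus defined in the same way. Among genes with a body of 1 to 5 kb the share was 52.3%, and of the 7 listed genes in that range hry and slp2 had a summit. The 3 replicates gave nearly the same genes. Among the 6201 strongest regions of each replicate, hry, slp2 and inv had a summit in replicates 1, 2 and 3, and opa had 1 in replicate 1 alone, which made 3.33 ± 0.577 genes (SD, n = 3), against 51.4% ± 3.03 of all genes in the same lists. The list is small and no test of its share was made. Per length, the loci held 8 summits over 176 kb, or 4.53 per 100 kb, and the chromosome arms 4.63 per 100 kb. The summits were unevenly spread, with 4 at hry, 3 at inv and 1 at slp2. Thus 2 of the 10 genes had 3 or more summits, a number reached by 15.5% of all genes.

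**Figure D1:**
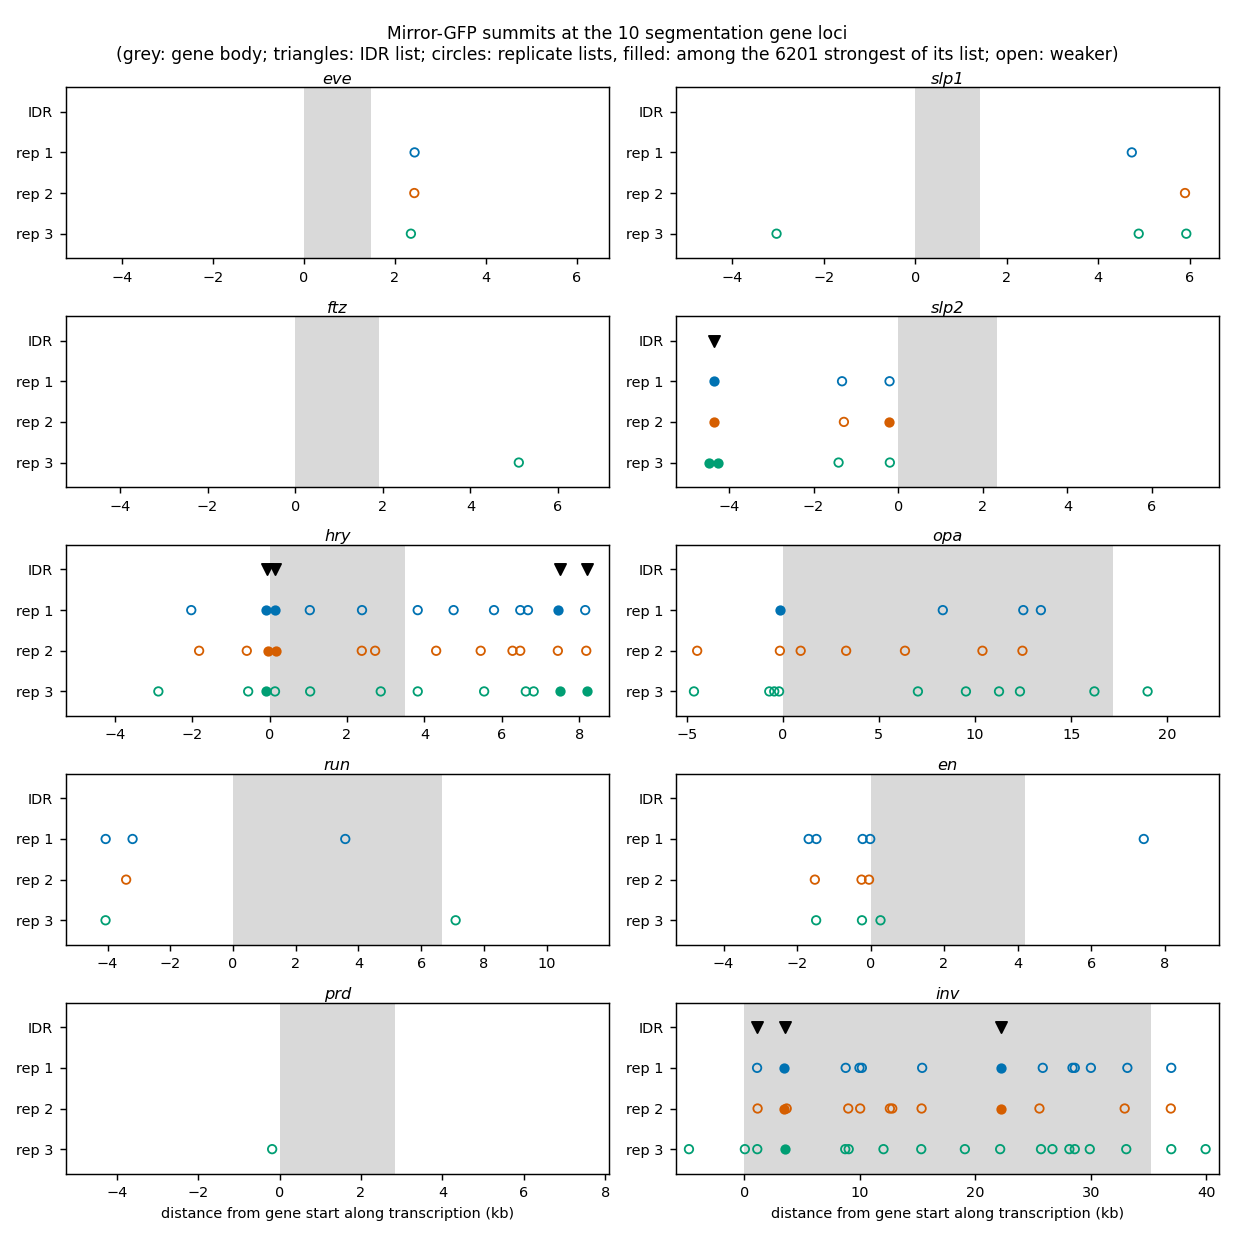
Position of Mirror summits at the 10 loci, in kb from the gene start along the direction of transcription; triangles are IDR summits and circles are summits of the 3 replicate lists, filled where the region is among the 6201 strongest of its list. The 8 IDR summits lie at hry, slp2 and inv, and eve, opa and en have weaker summits that recur in the 3 replicate lists.

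Sequences are shown for a selection of windows that does not follow rank alone. They are the strongest peaks of hry and slp2, a downstream hry peak of IDR rank 5111, and the opa promoter region. The opa region was the strongest of those below the IDR list in replicate 1 only. The slp2 promoter region, with pooled rank 8031 against 8115 for opa, held none of the sequences searched for and is not shown. The inv intron peak of IDR rank 2597 is not shown either, although it was stronger than the downstream hry peak. Each sequence shown is the plus strand of the release 6 (dm6) reference, from RefSeq, within 100 bp of the summit. The hry promoter window ends at the base before the first transcription start site (TSS). The genes hry, slp2 and opa are transcribed from the plus strand. Capitals mark matches, on either strand, to the Iroquois palindrome ACANNTGT, to AGATAAG bound by Serpent-type zinc finger factors and its other form TGATAAG, to the Trithorax-like sequence GAGAGAG, to the Pleiohomeotic core GCCAT, to the homeodomain sequence TAATTA, to the DRE sequence TATCGATA, to the Zelda sequence CAGGTAG, to the promoter element Motif 1 with the letters GGTCACACT, and to the CA repeat ACACACAC.
hry promoter, chr3L:8675601-8675758: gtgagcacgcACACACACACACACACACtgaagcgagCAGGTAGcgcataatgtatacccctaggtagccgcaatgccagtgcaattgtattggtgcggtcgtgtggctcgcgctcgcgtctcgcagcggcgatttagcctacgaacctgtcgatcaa
hry downstream, chr3L:8683152-8683352: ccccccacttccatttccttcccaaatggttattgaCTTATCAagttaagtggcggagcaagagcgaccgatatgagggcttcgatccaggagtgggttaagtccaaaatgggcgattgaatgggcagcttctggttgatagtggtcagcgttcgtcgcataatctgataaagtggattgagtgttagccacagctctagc
slp2 upstream, chr2L:3832388-3832588: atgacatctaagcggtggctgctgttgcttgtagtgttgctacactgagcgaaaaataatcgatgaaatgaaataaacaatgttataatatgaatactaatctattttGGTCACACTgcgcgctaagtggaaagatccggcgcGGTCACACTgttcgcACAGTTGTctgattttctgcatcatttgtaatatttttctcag
opa promoter, chr3R:4852513-4852713: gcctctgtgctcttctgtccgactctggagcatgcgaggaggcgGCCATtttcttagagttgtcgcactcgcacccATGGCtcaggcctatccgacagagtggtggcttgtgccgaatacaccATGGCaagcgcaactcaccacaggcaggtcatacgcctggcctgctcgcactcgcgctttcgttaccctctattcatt

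The hry window held the CA repeat and 1 Zelda sequence, the downstream hry window 1 TGATAAG (called the GATA sequence, as is AGATAAG), the slp2 window the Iroquois palindrome once and Motif 1 at 2 places, and the opa window GCCAT at 3 places. A match describes the letters of the window and does not show that a protein binds there. Motif 1 and the CA repeat were added to the search after these windows were seen.

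The hairy gene, hry, lies on 3L from 8675759 to 8679253 and encodes a basic helix-loop-helix repressor that works with the corepressor Groucho. It had the strongest peak of the 10 loci, at its promoter. That peak ran from 8675508 to 8675823 with a signal of 536.0 and rank 911 in the IDR list, 58 bp upstream of the nearest TSS. The replicate lists gave it signals of 201.7, 167.7 and 175.6 and ranks 1001, 628 and 1349 in replicates 1, 2 and 3. All 3 replicates therefore placed it among their strongest regions.

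A second hry promoter peak, from 8675840 to 8676025, followed after a gap of 16 bp, with its summit 199 bp from the first and 55 bp upstream of the second annotated TSS. Its signal was 218.6 with IDR rank 5058. Replicates 1 and 2 split the promoter in the same way and gave this peak ranks 4763 and 3523. In replicate 3 the region with a summit within 100 bp had rank 27839, near the end of the list, although the peak also touched the region of rank 1349 that covers the first summit. The promoter pair was thus resolved in replicates 1 and 2, with a weak second summit in replicate 3.

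The other IDR summits of hry lay downstream of the gene, in intergenic sequence. One lay 7297 bp from the nearest hry TSS (8683054 to 8683449, signal 217.0, IDR rank 5111), with ranks 5190, 6605 and 4588 in replicates 1, 2 and 3. The next lay 8006 bp from that TSS (8683763 to 8684158, signal 193.0, IDR rank 6098). Its ranks were 8777, 22233 and 3296, and replicate 3 alone had it among its 6201 strongest regions. Between promoter and downstream peaks, a weaker pooled region 6355 bp from the TSS also recurred, with ranks 12522, 11317 and 7557.

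Occupancy continued beyond the 5-kb limit of the hry locus. A further 5 IDR summits lay between 10626 and 19647 bp past the gene end, with IDR ranks 700, 1318, 1420, 1726 and 2602. The nearest TSS was that of hry for 4 of them. For the farthest, 23141 bp from the hry gene start (8698764 to 8699016, signal 593.4), it was that of SrpRbeta, at 21325 bp. That peak had ranks 799, 966 and 611 in replicates 1, 2 and 3 and was stronger than the promoter peak of hry in the IDR list. With 20 kb on each side hry had 9 summits.

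The other early acting pair-rule genes, eve and run, had no IDR summit in the locus. The gene eve, on 2R from 9979319 to 9980795, encodes a homeodomain repressor. Its locus held 1 pooled region, 2421 bp from the TSS and downstream of the gene (9981542 to 9981937, signal 102.3), which recurred in all 3 replicates with signals of 39.0, 36.1 and 42.2 and ranks 14415, 10985 and 13785. The 3 replicate summits were weak but lay at the same place. Within 20 kb the sole IDR summit was 19380 bp upstream, in a peak of rank 11 that lay 139 bp upstream of the nearest TSS, that of Pal1.

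The gene run, on X from 20690670 to 20697321, encodes the founding Runt domain factor. Its locus held 4 pooled regions with signals from 49.8 to 83.4, and none of them recurred in all 3 replicates. The strongest, 3340 bp from the nearest TSS, was found in replicate 3 alone, at rank 16240. A region 53 bp upstream of the second annotated TSS was found in replicate 1 alone, at rank 25334. No IDR summit lay within 20 kb of run.

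The later acting genes ftz and prd had almost no regions in the lists. The gene ftz, on 3R from 6864324 to 6866244, encodes a homeodomain protein that acts together with the nuclear receptor Ftz-F1. No pooled region lay in its locus, and 1 replicate region, in replicate 3, was 5104 bp from the TSS at rank 15565. The gene prd, on 2L from 12082995 to 12085827, encodes a protein with a paired domain and a homeodomain. Its locus also held no pooled region, and replicate 3 alone had a region there, 185 bp upstream of a TSS at rank 23601. Replicates 1 and 2 had no region among their 30000 at either gene, although 82.1% and 79.8% of all genes had a region in the locus in these lists.

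The sloppy paired genes slp1 and slp2 encode forkhead domain factors and lie side by side on 2L, slp1 from 3825675 to 3827099 and slp2 from 3836840 to 3839185. The second strongest peak of the 10 loci lay between them, from 3832450 to 3832616, with a signal of 413.6 and IDR rank 1630. It was 4352 bp upstream of the slp2 TSS and 5389 bp past the end of slp1, so that it belonged to the slp2 locus and fell just outside that of slp1. Its ranks were 1173, 2837 and 2493 in replicates 1, 2 and 3, and all 3 replicates had it among their strongest regions. In replicate 3 the region with a summit within 100 bp had rank 4036. The window of this peak has 2 copies of GGTCACACT. At least 1 copy was held by 1.42% of IDR summits within 100 bp and by 0.781% of relaxed-only summits, meaning pooled regions that overlapped no IDR peak. The sequence was added to the search after this window was seen, so nothing was read from its presence here.

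At the slp2 promoter itself a weaker pooled region lay 199 bp upstream of the TSS (3836443 to 3836838, signal 157.6, pooled rank 8031). It recurred with ranks 11208, 6149 and 13705, among the strongest 6201 in replicate 2 only. Another lay 1303 bp upstream, with ranks 9535, 14961 and 23531. The slp1 locus had 2 pooled regions, both on the side that faces slp2, and neither was found in all 3 replicates. The slp1 promoter had no summit within 1000 bp in any list.

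The gene opa, on 3R from 4852813 to 4869979, encodes a zinc finger protein of the Zic family. It had no IDR summit within 20 kb. Its promoter carried a pooled region 200 bp upstream of the TSS (4852415 to 4852810, signal 156.3, pooled rank 8115), which recurred with signals of 93.1, 22.4 and 38.5 and ranks 4640, 19648 and 15811 in replicates 1, 2 and 3. The region stood among the strongest in replicate 1 and lay far down the lists of replicates 2 and 3. In the body of opa 1 other region recurred, in an intron 12388 bp from the TSS, with ranks 15516, 18927 and 10107.

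**Figure D2:**
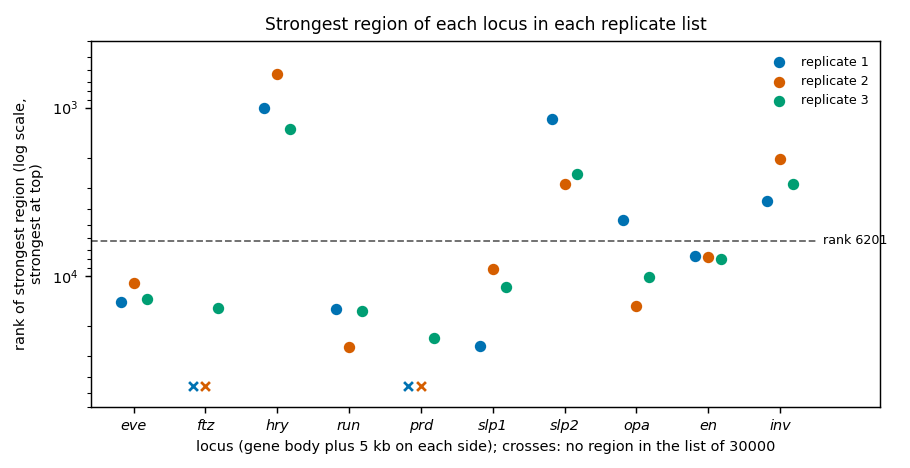
Rank of the strongest region of each locus in each replicate list, on a log axis with the strongest at the top; the dashed line is rank 6201 and crosses mark loci with no region in a list. Points of hry, slp2 and inv lie above the line in all 3 replicates and opa in replicate 1 only, with en just below it at ranks 7609, 7703 and 7929.

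The invected gene inv, on 2R from 11474465 to 11509695, is the longest of the 10 and had 3 IDR summits, all inside the gene. The strongest lay in an intron 2244 bp from the nearest TSS (11477754 to 11478149, signal 327.1, IDR rank 2597), with ranks 3589, 2027 and 2858. The second, in an intron 20943 bp from the TSS (11496453 to 11496848, signal 207.6, IDR rank 5489), had ranks 5009, 3956 and 10161, and so was weaker in replicate 3. The third lay at the promoter, 136 bp upstream of the second annotated TSS (11475374 to 11475769, signal 197.6, IDR rank 5896). Its ranks of 7141, 6402 and 6851 were close to each other, yet none was among the 6201 strongest of its list. With a locus of 45.2 kb inv also had 14 of the 43 pooled regions, of which 8 recurred in all 3 replicates.

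Its neighbour en, on 2R from 11524006 to 11528210, shares regulatory sequence with inv and is expressed with it. The en locus had no IDR summit, and no IDR summit lay within 20 kb of the gene. It did have 3 pooled regions that all recurred, 34 bp, 234 bp and 1503 bp upstream of a TSS. The first (11528046 to 11528441, signal 149.5, pooled rank 8601) overlapped regions of ranks 7609, 7703 and 7929 in replicates 1, 2 and 3, but in replicate 3 no summit lay within 100 bp of its own. The second overlapped the same replicate regions, and by summits within 100 bp it had ranks 27734, 27558 and 7929. The third (11529515 to 11529910, signal 136.4) had ranks 13570, 8741 and 8505. The strongest en promoter summit thus lay at the first position in replicates 1 and 2 and at the second in replicate 3, and was below the 6201 strongest in each.

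GAGAGAG, a sequence bound by the GAGA factor that is known from promoters and Polycomb response elements, occurred at the promoters of en and inv. Of the 43 pooled regions at the 10 loci 4 held it within 100 bp of the summit, which were the inv promoter peak and all 3 recurring regions of en. Over all 30000 pooled regions the share was 5.57%. The en regions 34 bp and 234 bp upstream of a TSS overlap each other, and the third, 1503 bp upstream, is intergenic. The 4 regions are therefore not 4 separate promoters. Of the 8 IDR peaks 1 held GAGAGAG, against 7.43% of all IDR summits. The core GCCAT, bound by the Polycomb group protein Pleiohomeotic, was in 18 of the 43 regions, against 38.2% of all pooled regions. The Iroquois palindrome was in 1 of the 8 IDR windows, that of slp2, while 13.4% of all IDR summits and 10.2% of relaxed-only summits held it. The GATA sequence was in 2 of the 8, at hry and inv, against 20.1% of IDR summits. Of the 43 pooled regions 5 held the palindrome, against 11%, 5 the GATA sequence, against 10.7%, 4 TAATTA, against 10.3%, and none TATCGATA, against 1.59%. The CA repeat was in 9, at hry, slp2, opa and inv, against 9.84%, and overlapping matches of it formed 1 run in the hry window. It was added to the search after that window, itself 1 of the 43, was seen, so nothing was read from its count. CAGGTAG was in the hry promoter alone, against 0.95%. No test was made of these counts.

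Promoters were compared separately. An IDR summit lay within 1000 bp of a TSS at hry and inv, 2 of the 10 genes, against 25.1% of all genes. Among the 6201 strongest regions of the replicates, promoter summits were at hry and opa in replicate 1, at hry and slp2 in replicate 2, and at hry in replicate 3, or 1.67 ± 0.577 genes (SD, n = 3), against 24.4% ± 3.23 of all genes. The replicates thus shared the hry promoter, and that of inv was in none of these lists. A summit of any strength in the relaxed list of each of the 3 replicates lay within 1000 bp of a TSS at 5 genes (hry, slp2, opa, en and inv), against 39.3% of all genes. Across whole loci 6 genes, these 5 and eve, had a pooled region that recurred in all 3 replicate lists, against 67.6% of all genes. Of the 7 genes of 1 to 5 kb 4 had 1, against 66.3%. With 10 genes, a promoter count of 5 or a locus count of 6 lies about 1 gene from the share of all genes, and nothing was read from either.

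The strongest region of each locus was also placed among those of all genes. A region as strong as the best of hry was found in the locus of 16.7%, 9.42% and 19.1% of all genes in replicates 1, 2 and 3. For slp2 the shares were 18.8%, 30.4% and 29.6%, and for inv, with its longer locus, 40.7%, 24.3% and 32.4%. For en they were 59.9%, 54.4% and 56.2%, and for eve 73.2%, 62.9% and 69.5%. The shares of slp2 and inv crossed between replicates, so their order was not fixed, whereas hry came first in each.

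Recurrence at these loci was set beside that of the whole lists. Of the 8 IDR peaks 4 overlapped the 6201 strongest regions of all 3 replicates, against 56.1% of all IDR peaks, and 8 were found in all 3 relaxed lists, against 93.8%. The 4 include the second hry promoter peak, which in replicate 3 touched the strong region of the first summit. With summits within 100 bp the 4 became 3. Of the 35 relaxed-only regions 14 recurred in the 3 relaxed lists, against 46% of all such regions. Those found among the 6201 strongest of a replicate were 2 of 35, the promoters of slp2 and opa, against 14.1%. By position, the IDR summits divided into 3 promoter summits (500 bp or less from a TSS), 3 between genes and 2 in introns. The 14 weaker recurring regions divided into 4 at promoters, 5 between genes, 4 in introns and 1 in the 3' UTR of inv.

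**Figure D3:**
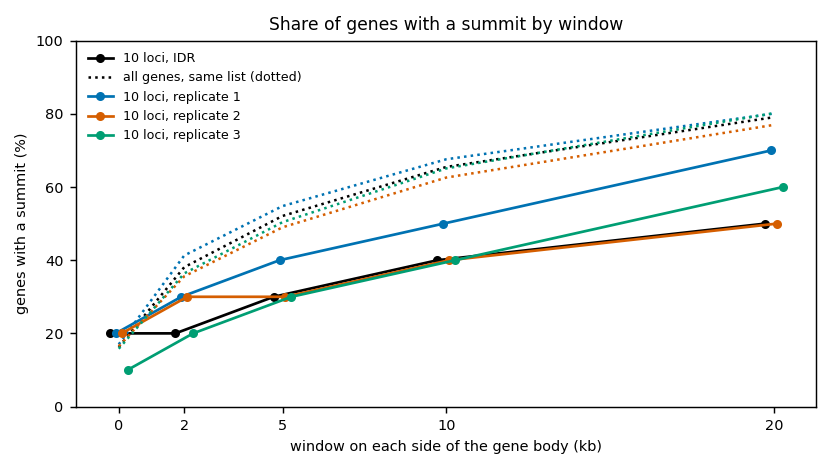
Share of genes with a summit, in percent, against the window added on each side of the gene body in kb; solid lines are the 10 loci in the IDR list and in the 6201 strongest regions of each replicate, with points shifted slightly sideways so that lines that coincide can be seen, and dotted lines are all protein-coding genes in the same lists. From 2 kb on, the 10 loci lie below all genes in each list, but in the gene body alone they do so in replicate 3 only.

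The width of the window bore on the counts, as the plot by window shows. In the gene body alone hry and inv had an IDR summit, 2 of 10, against 16.3% of all genes. With 10 kb on each side the number was 4, since the summit upstream of slp2 then fell to slp1 as well, against 65.5%. With 20 kb it was 5, with the Pal1 promoter peak near eve, against 79.1%. The genes ftz, run, prd, opa and en had no IDR summit at any of these widths.

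Other genes of the segmentation hierarchy were listed for comparison, and 27 of the 28 symbols were found in the annotation. An IDR summit lay in the locus of 13 of the 27, against 52.1% of all genes, and at the promoter of 11, against 25.1%. The same shares of all genes apply to the smaller groups that follow, for which no test was made. Of the segment polarity genes 5 of 9 had a summit. The peak of ci, which encodes the transcription factor of Hedgehog signalling, had rank 110 and a signal of 1144.8 at its promoter. The Hedgehog receptor gene ptc had its best promoter peak at rank 2001, nkd, which encodes an inhibitor of Wingless signalling, at 2514, and the ligand gene wg at 3101, whereas the ligand gene hh had summits outside its promoter, the best at rank 627. The paired-domain genes gsb and gsb-n and the T-box genes mid and H15 had none.

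Among cofactors of the pair-rule proteins, 3 of 4 had a promoter summit. The nuclear receptor gene ftz-f1 had 11 IDR summits, with its best promoter peak at rank 928, and its partner ftz had none. These counts were not set per length of locus. The gene gro, for the corepressor used by Hairy and Engrailed, had its best promoter peak at rank 755 and the homeodomain cofactor gene hth at rank 5640, and exd had no summit. Of the regulators of stripes 3 of 9 had a summit: hb and cad at their promoters, with ranks 2856 and 4815, and D away from it at rank 5512. The gap and terminal genes Kr, kni, gt, tll and hkb and the early activator gene zld had none. Of the pair-rule or odd family genes found, bowl (promoter rank 1108) and sob (rank 2922) had a promoter summit, and odd, drm and Ten-m had no IDR summit.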

How the data were processed

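Mirror-GFP ChIP-seq was deposited for 3 replicates as peak lists in narrowPeak form on dm6. Per the deposited file descriptions, the authors called regions in each replicate and in the pooled replicates against 1 control, and derived the IDR list from these; the aligner, caller, threshold and depth are not given in the sources used here. The signal of each region is the authors' deposited value. The sample descriptions name an input control, whereas title, antibody and derivation name ChIP, which was followed. The age field is garbled, and the age came from the source field.

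Summits were placed on Ensembl 115 genes of BDGP6.54 (13945 protein-coding genes, 19607 TSSs, 6 arms), whose coordinates for the 10 genes equal those of the RefSeq release 6 assembly. Replicate lists were cut at 6201 regions for counts, and regions were matched by an overlap of at least 1 bp. Replicates are biological replicates by label; peaks and genes are not replicates. The members, lists and searches were chosen with earlier results of these data known. No test was made. Genes named are the 10 members, genes with the TSS nearest to a summit there, and the listed segmentation genes with a promoter summit; others were named after their values were seen. Counting was tested on simulated data, in which the planted summits were recovered at 200 of 200 genes. Python 3.11.15, numpy 2.4.6 and pandas 2.3.3 were used.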

Additional observations from a re-analysis of the deposited data

How the results depend on the processing

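The 3 genes with an IDR summit became 5 with 20 kb on each side and stayed within 1.5 times that number under the other alternatives, which were narrower windows, 10 kb, the nearest TSS, the 3100 strongest IDR peaks and 1 summit per merged region. The 2 promoter genes became 1 with the 3100 strongest IDR peaks. The 8 distinct summits became 4 in gene bodies alone, 5 with 2 kb, 14 with 20 kb and 3 with the 3100 strongest IDR peaks. The 4 summits found in all 3 replicates became 3 with summits within 100 bp, 1 with 50% reciprocal overlap and 8 with the whole relaxed lists. The mean of 3.33 genes per replicate list became 2.67 with 3100 regions per list and 5.67 with 12402. With each replicate left out in turn, the mean number of genes ranged from 3 to 3.5 and the mean number of summits from 6 to 6.5. Of 58 alternatives for single genes and sequences, 41 stayed within 1.5 times and 17 did not. Many of the 41 were counts of 0 that stayed 0, as at ftz, run, prd, opa and en and for TATCGATA. The 41 therefore do not show that counts above 0 were stable. The 4 summits of hry became 1 in the gene body, 2 with 2 kb and 9 with 20 kb, while the 3 of inv stayed 3. No paired analysis was possible because the samples form 1 group. Depth is unknown, so a gene without a peak may hold occupancy below what these lists detect; the cause of each change was not tested.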
